A study of Mus musculus with 8 samples.

Results

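A set of 10 genes encoding secreted ligands of the bone morphogenetic protein (BMP) and growth differentiation factor (GDF) families was followed across 4 culture media: Bmp2, Bmp3, Bmp4, Bmp5, Bmp6, Bmp7, Bmp8a, Bmp8b, Gdf6 and Gdf7. They are 10 of the 54532 genes in the count table, and all 10 were among the 15470 genes with enough counts to be tested. The genes were chosen by symbol with their levels in these same 8 libraries already known, so their levels and changes are given as a description, without p-values. RNA came from wild-type mouse embryonic fibroblasts, primary connective tissue cells grown from embryos, after 4 days in 1 of the media, with 2 libraries per medium. The MEF group stayed in fibroblast medium. The other groups shared the cocktail CFAE, made of CHIR99021 (a GSK-3 inhibitor, which activates Wnt signalling), Forskolin (which raises cyclic AMP), AM580 (a retinoic acid receptor alpha agonist) and EPZ04777 as the labels spell it (a DOT1L inhibitor). CFAE+8 also held A-83-01, CFAE+8+MSC held A-83-01 together with MSC2530818 (an inhibitor of the Mediator kinases CDK8 and CDK19), and CFAE+6 held E-616452 in place of A-83-01. Both A-83-01 and E-616452 block the type I receptors that TGF-beta uses, which differ from the type I receptors for BMPs. Doses are not given in the labels, so the A-83-01 and E-616452 media are set side by side without a matched dose.

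BMPs and GDFs are made as precursors, cut by furin-type proteases and secreted as dimers. They bind pairs of type I and type II receptor kinases, which phosphorylate SMAD1, SMAD5 and SMAD9 and so switch on genes such as the Id and Msx genes. Secreted antagonists such as noggin and gremlin trap the ligands outside the cell. In mesenchymal cells BMPs are best known for starting bone and cartilage formation, and in the embryo they pattern limbs, neural tube and joints.

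Each library held 10958430 to 11913143 counts, so that 1 count corresponded to 0.0848 to 0.095 CPM (the count divided by the scaled library size, in the usual unit). Principal component 1 carried 76.3% of the variation between libraries, and MEF differed from the cocktail groups at 62% or more of the genes tested. All 12 fibroblast markers examined had counts in every group, and their summed level was 31086 to 31847 CPM in MEF and 13422 to 14764 CPM in the cocktail libraries. Whether both libraries of a medium came from separate cultures is not in the labels, which name no batch either, so each p-value rests on a spread between libraries that may be technical. In bulk RNA, fewer cells expressing a gene and less RNA per cell cannot be told apart.

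Bmp2 and Bmp4 form the classic BMP pair, close in sequence and both able to drive bone formation, and they moved in different ways between the media. Bmp2 (ENSMUSG00000027358, mm10 chromosome 2, 133552159 to 133562885, 3 exons) was at 5.32 and 5.95 CPM in the MEF libraries, 287 and 277 CPM in CFAE+8, 165 and 152 CPM in CFAE+8+MSC, and 191 and 203 CPM in CFAE+6. No library of one medium overlapped those of another: Bmp2 was lowest in MEF and highest in CFAE+8. Its log2 change from MEF to CFAE+8 was 5.64 ± 0.09 (SE). From CFAE+8 it fell by 0.83 ± 0.06 on the log2 scale when MSC2530818 was added and by 0.52 ± 0.05 when E-616452 replaced A-83-01.

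Bmp4 (ENSMUSG00000021835, chromosome 14, 46383520 to 46390669, 4 exons) was at 67.6 and 59.5 CPM in MEF, 83.8 and 89.9 CPM in CFAE+8, 192 and 197 CPM in CFAE+8+MSC, and 186 and 195 CPM in CFAE+6. The libraries fell into a low pair of media, MEF and CFAE+8, and a high pair, CFAE+8+MSC and CFAE+6, and the latter 2 overlapped. The log2 change from MEF to CFAE+8 was 0.45 ± 0.07. Exons of Bmp4 overlap those of Gm15217 on the other strand over 3.96% of their length. Gm15217 had 2 to 12 counts per library. From CFAE+8, Bmp4 rose by 1.16 ± 0.06 with MSC2530818 and by 1.13 ± 0.06 with E-616452, 2 changes that share the CFAE+8 libraries. The direct difference between CFAE+8+MSC and CFAE+6 was 0.03 on the log2 scale, with a 95% interval of -0.09 to 0.15. Bmp2 and Bmp4 were thus both higher in CFAE+8 than in MEF, while from CFAE+8 to either of the other cocktails Bmp2 fell and Bmp4 rose.

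Per kilobase of gene length, Bmp4 was the higher of this pair in MEF, where the ratio of Bmp2 to Bmp4 was 0.0498 and 0.0632 in the 2 libraries. In CFAE+8 the order was reversed, with ratios of 2.16 and 1.95. With MSC2530818 the ratio was 0.543 and 0.490, and in CFAE+6 it was 0.652 and 0.658. Bmp2 therefore stood above Bmp4 per length in CFAE+8 and below it in the other 3 media.

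**Figure D1:**
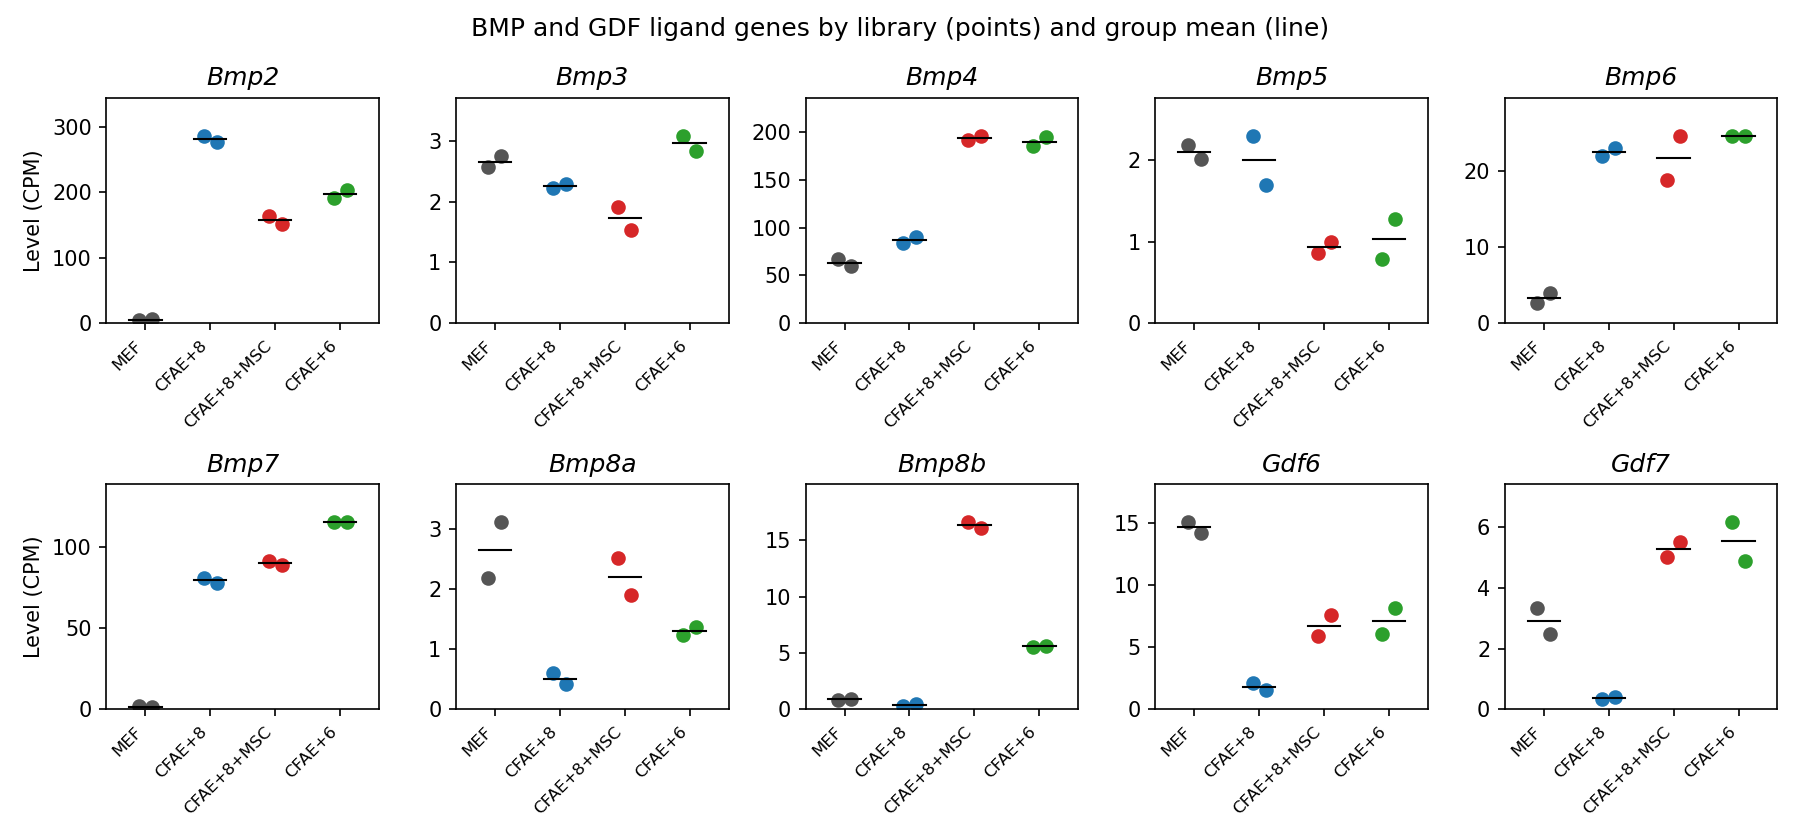
Level of each of the 10 ligand genes in CPM (vertical axes, each starting at 0) in the 2 libraries of each medium (points), with the group mean as a line. Bmp2 is highest in CFAE+8 at 277 and 287 CPM, while Bmp4 is highest in CFAE+8+MSC and CFAE+6, and Gdf6 and Gdf7 dip in CFAE+8.

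Bmp5, Bmp6, Bmp7, Bmp8a and Bmp8b belong to a second subgroup of BMPs, of which Bmp7 is known for kidney and eye development and Bmp6 for iron regulation. Bmp7 (ENSMUSG00000008999, chromosome 2, 172868012 to 172940321, 7 exon blocks) was at 1.90 and 1.56 CPM in MEF, 81.1 and 77.9 CPM in CFAE+8, 91.3 and 89.1 CPM in CFAE+8+MSC, and 116 and 115 CPM in CFAE+6. Every cocktail library stood far above both MEF libraries, and no 2 media overlapped. The log2 change from MEF to CFAE+8 was 5.53 ± 0.13. From CFAE+8 it rose by 0.54 ± 0.06 with E-616452. With MSC2530818 the log2 change was 0.18 ± 0.07, a call that was lost in 6 of 15 alternative analyses, among them DESeq2 and the removal of any 1 of the 4 libraries compared.

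Bmp6 (ENSMUSG00000039004, chromosome 13, 38345107 to 38500302) was at 2.66 and 3.94 CPM in MEF, 21.9 and 23.0 CPM in CFAE+8, 18.9 and 24.7 CPM in CFAE+8+MSC, and 24.7 CPM in both CFAE+6 libraries. It rose by 2.76 ± 0.19 on the log2 scale from MEF to CFAE+8, and the cocktails lay close together. The difference of CFAE+8+MSC from CFAE+8 was -0.05 (95% interval -0.32 to 0.23) and that of CFAE+6 from CFAE+8 was 0.14 (-0.13 to 0.40), neither of which passed. Exons of Bmp6 overlap those of Txndc5 on the other strand over 5.74% of their length. Txndc5 had 4699 to 6039 counts per library, beside 28 to 288 for Bmp6, so the level of Bmp6 is uncertain. Strand is not kept by this library kit, and reads from the overlap could belong to either gene.

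Bmp8a and Bmp8b, known for roles in germ cells and in fat and heat production, both lie on chromosome 4 and resemble each other closely. Bmp8b (ENSMUSG00000002384, 123105165 to 123132099) had 9 and 10 counts in MEF, 4 and 6 in CFAE+8, 192 and 178 in CFAE+8+MSC, and 63 and 66 in CFAE+6. In CPM these were 0.855 and 0.916, 0.341 and 0.509, 16.6 and 16.1, and 5.55 and 5.65. No 2 media overlapped, and CFAE+8+MSC was the highest. The log2 change from CFAE+8 was 5.27 ± 0.30 with MSC2530818 and 3.72 ± 0.35 with E-616452. CFAE+8+MSC exceeded CFAE+6 by 1.55 ± 0.19. From MEF to CFAE+8 the change was -1.06, with a 95% interval of -2.14 to 0.03, which did not pass. Exons of Bmp8b overlap those of Ppie and Gm17244 on the other strand over 12.2% of their length, so its level is uncertain. Ppie itself was at 17.4 CPM in MEF, 18.0 CPM in CFAE+8, 21.2 CPM in CFAE+8+MSC and 20.3 CPM in CFAE+6, and Gm17244 had 10 counts over all 8 libraries.

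Bmp8a (ENSMUSG00000032726, 123312645 to 123343252) had 23 and 34 counts in MEF, 7 and 5 in CFAE+8, 29 and 21 in CFAE+8+MSC, and 14 and 16 in CFAE+6. The corresponding levels were 2.19 and 3.11 CPM, 0.598 and 0.424 CPM, 2.51 and 1.90 CPM, and 1.23 and 1.37 CPM. CFAE+8 was the lowest medium, and MEF and CFAE+8+MSC overlapped. The gene fell by 2.38 ± 0.48 from MEF to CFAE+8 and rose by 2.11 ± 0.49 with MSC2530818. The change with E-616452 was 1.35 ± 0.53 and did not pass. Per kilobase, the ratio of Bmp8b to Bmp8a was 0.243 and 0.182 in MEF, 0.354 and 0.744 in CFAE+8, 4.10 and 5.25 in CFAE+8+MSC, and 2.79 and 2.56 in CFAE+6.

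The coding sequences of Bmp8a and Bmp8b are 88% identical, the closest pair among the 10 genes. In the GENCODE M21 transcripts, 6.62% of the 75-base windows of Bmp8a and 4.18% of those of Bmp8b occur unchanged in the other gene, and no other pair of members shared such a window. Reads from these stretches cannot be placed, and their treatment in the counting is not recorded in the labels, so both genes are uncertain to that extent. The longest run that both share exactly is 182 bases, at positions 451 to 632 of both coding sequences (counted from the first coding base), and is shown because reads within it belong equally to either gene:

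Bmp8a and Bmp8b: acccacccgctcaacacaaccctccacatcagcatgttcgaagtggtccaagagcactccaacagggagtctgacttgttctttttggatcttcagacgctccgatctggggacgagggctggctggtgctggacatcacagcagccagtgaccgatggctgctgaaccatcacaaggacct

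Bmp5 (ENSMUSG00000032179, chromosome 9, 75775364 to 75900310) was low everywhere, at 2.19 and 2.02 CPM in MEF, 2.30 and 1.70 CPM in CFAE+8, 0.866 and 0.995 CPM in CFAE+8+MSC, and 0.793 and 1.28 CPM in CFAE+6. MEF and CFAE+8 overlapped, as did CFAE+8+MSC and CFAE+6, and the first pair lay above the second. The change was -1.11 ± 0.45 with MSC2530818 and -0.94 ± 0.44 with E-616452, and neither passed. Against MEF the gene was called lower in CFAE+6 and in CFAE+8+MSC, calls that were lost in 11 and 5 of 15 alternative analyses. An antisense gene, Gm26903, overlaps 46.7% of the exon length of Bmp5 and had 3 counts over all libraries, so Bmp5 is uncertain.

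Gdf6 and Gdf7 belong to the subgroup of GDFs known for joint, tendon and dorsal spinal cord development, and both were lowest in CFAE+8. Gdf6 (ENSMUSG00000051279, chromosome 4, 9844372 to 9862345, 2 exons) was at 15.1 and 14.2 CPM in MEF, 2.13 and 1.53 CPM in CFAE+8, 5.89 and 7.60 CPM in CFAE+8+MSC, and 6.08 and 8.13 CPM in CFAE+6. MEF was the highest medium, and the MSC2530818 and E-616452 media overlapped between MEF and CFAE+8. The gene fell by 3.001 ± 0.24 from MEF to CFAE+8 on the log2 scale. From there it rose by 1.88 ± 0.27 with MSC2530818 and by 1.96 ± 0.26 with E-616452.

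Gdf7 (ENSMUSG00000037660, chromosome 12, 8297918 to 8301954, 2 exon blocks) was at 3.33 and 2.47 CPM in MEF, 0.341 and 0.424 CPM in CFAE+8, 5.02 and 5.52 CPM in CFAE+8+MSC, and 6.17 and 4.88 CPM in CFAE+6. Its order differed from that of Gdf6: CFAE+8+MSC and CFAE+6 overlapped and lay above MEF, which lay above CFAE+8. The log2 change was -2.92 ± 0.45 from MEF to CFAE+8, 3.78 ± 0.40 with MSC2530818 and 3.85 ± 0.40 with E-616452. The CFAE+8 libraries held only 4 and 5 counts of Gdf7. Per kilobase, the ratio of Gdf6 to Gdf7 was 1.83 and 2.31 in MEF, 2.52 and 1.45 in CFAE+8, 0.472 and 0.555 in CFAE+8+MSC, and 0.397 and 0.671 in CFAE+6.

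Of 7 marker lists for other cell types, those of mesothelium, smooth muscle, epithelium and cartilage and bone had their lowest sum in CFAE+8. Gdf6, Gdf7 and Bmp8a were also lowest in that medium, as was Bmp8b, though without a call against MEF. The 6 mesothelial markers summed to 154 to 156 CPM in MEF, 3.39 to 3.50 CPM in CFAE+8, 17.1 to 19.7 CPM in CFAE+8+MSC and 16.8 to 18.4 CPM in CFAE+6. All 6 fell from MEF to CFAE+8, where Upk3b and Lrrn4 had no counts. The 8 smooth muscle markers summed to 3216 to 3250 CPM, 117 to 119 CPM, 1737 to 1754 CPM and 761 to 778 CPM in the same order of media. None of the smooth muscle markers was at 0 in any medium, and 8 of 8 fell from MEF to CFAE+8. The 9 epithelial markers summed to 40.1 to 44.1 CPM, 11.5 to 12.04 CPM, 43.0 to 47.1 CPM and 40.4 to 41.1 CPM, and Esrp1 was at 0 in MEF and CFAE+8. Of 7 epithelial markers tested, only 3 fell and 1 rose from MEF to CFAE+8. The 12 cartilage and bone markers summed to 327 to 363 CPM in MEF, 177 to 183 CPM in CFAE+8, and 193 to 209 CPM in the other cocktails, with Bglap and Dmp1 at 0 in CFAE+8. This list was split: of 9 tested, 4 rose and 4 fell from MEF to CFAE+8. The other 3 lists ran otherwise. The 10 macrophage markers summed to 212 to 215 CPM in MEF, 40.1 to 41.0 CPM in CFAE+8 and 21.7 to 25.03 CPM in the other cocktails. Sums higher in every cocktail than in MEF, as for Bmp2, Bmp4, Bmp6 and Bmp7, were seen for the 6 endothelial markers (18.8 to 19.1 CPM in MEF, 25.02 to 27.1 CPM in CFAE+8, 52.1 to 60.9 CPM in the other cocktails) and for the 7 neural crest and neuron markers (55.4 to 60.0 CPM, 105 to 106 CPM and 124 to 146 CPM). Neither list rose as a whole. Of 4 endothelial markers tested, 2 rose and 1 fell from MEF to CFAE+8 and to CFAE+8+MSC, and 2 rose and 2 fell to CFAE+6. Of 5 neural crest and neuron markers tested, 3 rose and 1 fell from MEF to CFAE+8, and 4 rose and 0 fell to either other cocktail. Among the endothelial markers Tie1 was at 0 in all media but CFAE+6, and Emcn was at 0 in CFAE+8+MSC and CFAE+6. Among the neural ones Tfap2b was at 0 in MEF. The part of these cells or programmes in the ligand levels was not tested.

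Bmp3 is an unusual family member that lowers rather than starts the classic BMP response. Bmp3 (ENSMUSG00000029335, chromosome 5, 98854415 to 98884396, 3 exons) was at 2.57 and 2.75 CPM in MEF, 2.22 and 2.29 CPM in CFAE+8, 1.91 and 1.54 CPM in CFAE+8+MSC, and 3.09 and 2.82 CPM in CFAE+6. Each library held 17 to 35 counts. Bmp3 passed in none of the 6 comparisons, with edgeR or under any alternative analysis, and its log2 range over the media, 0.73, was the narrowest of the 10 genes. The widest was that of Bmp7, at 5.93.

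The members called in each comparison are set beside the share of all tested genes called there. From MEF to CFAE+8, 4 of the 10 genes were called higher (Bmp2, Bmp4, Bmp6 and Bmp7) and 3 lower (Bmp8a, Gdf6 and Gdf7), where 62% of all tested genes were called in either direction. From MEF to CFAE+6, 6 were called higher and 3 lower against 63.1% of all genes, and from MEF to CFAE+8+MSC 6 higher and 2 lower against 64.1%. With MSC2530818 against CFAE+8, 6 were called higher (Bmp4, Bmp7, Bmp8a, Bmp8b, Gdf6 and Gdf7) and Bmp2 lower, against 29.3% of all genes. With E-616452 in place of A-83-01, 5 were called higher (Bmp4, Bmp7, Bmp8b, Gdf6 and Gdf7) and Bmp2 lower, against 26.6%. These contrasts were known when the genes were chosen, so nothing is read from the counts. Between CFAE+8+MSC and CFAE+6 directly, Bmp8b was called higher and Bmp2 and Bmp7 lower with MSC2530818, against 10.5% of all genes. The median log2 change of the 10 genes was -0.15 from MEF to CFAE+8, 0.67 with MSC2530818 and 0.84 with E-616452, beside medians of 0.01, -0.004 and 0.001 over all tested genes.

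**Figure D2:**
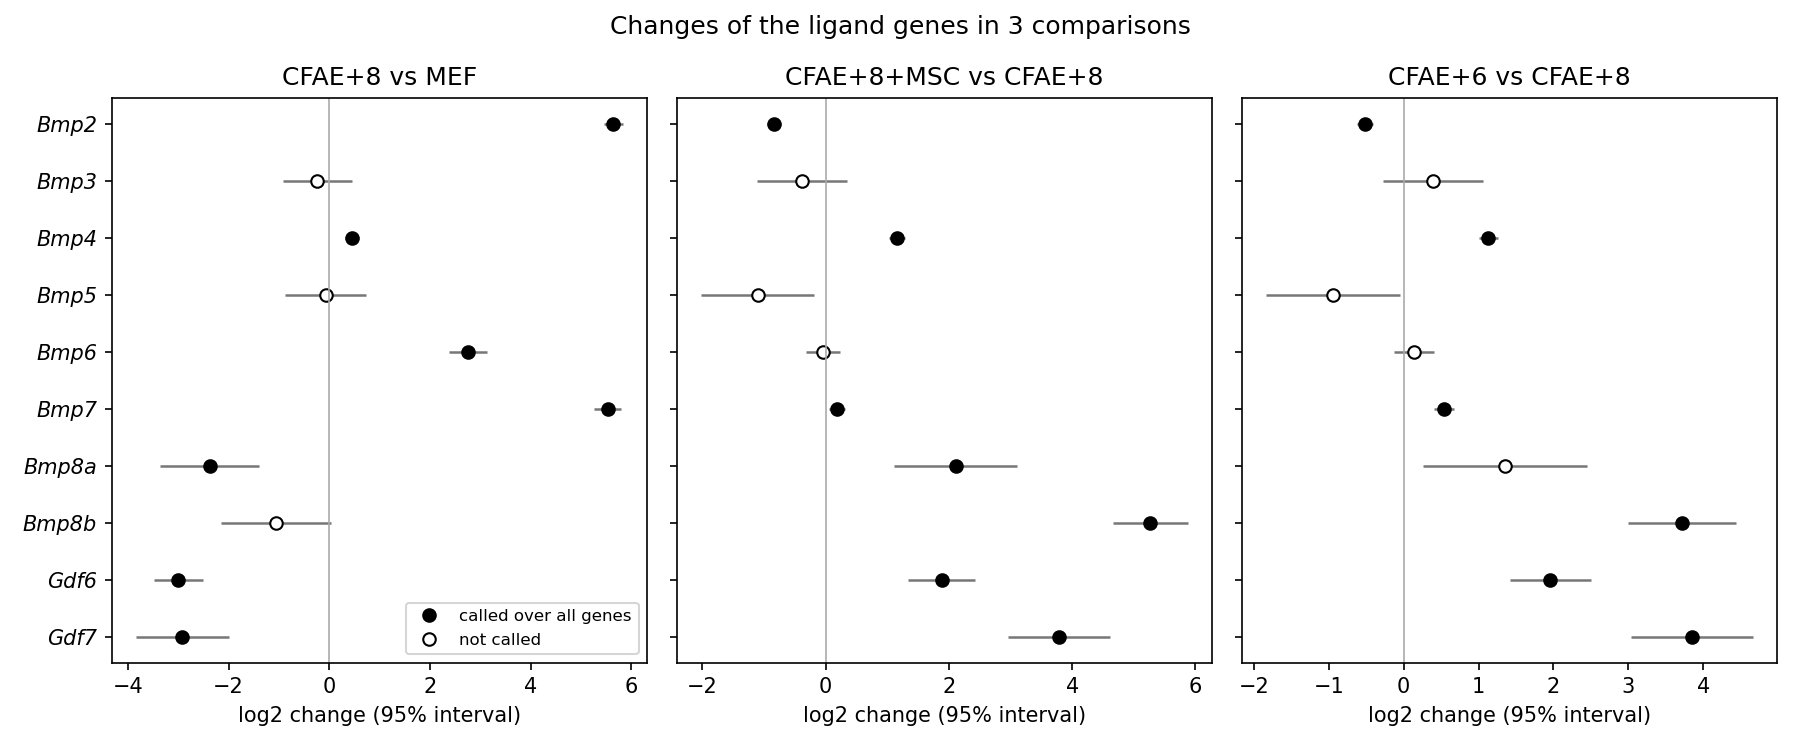
Log2 change of each ligand gene (horizontal axes) with its 95% interval in CFAE+8 against MEF, CFAE+8+MSC against CFAE+8 and CFAE+6 against CFAE+8, filled where the gene was called over all tested genes and open where not. Bmp2 lies at 5.64 in the first panel and below 0 in the other panels, while Bmp8b lies at 5.27 with MSC2530818 and 3.72 with E-616452.

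Gdf7 rose above its MEF level in both media that differ from CFAE+8, by 0.93 ± 0.27 in CFAE+6 and 0.86 ± 0.28 in CFAE+8+MSC on the log2 scale. Each of these calls was lost in 2 of 15 alternative analyses. Leaving out MEF replicate 2 ended both, at 0.72 and 0.66. Leaving out CFAE+6 replicate 1 ended the first at 0.76, and DESeq2 ended the second at 0.86. Bmp8a was called lower in CFAE+6 than in MEF by -1.03 ± 0.40, a call lost in 4 of 15.

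Summed per kilobase, the 10 genes stood at 39.5 ± 2.56 CPM per kb (SD, n = 2) in MEF. The cocktails stood higher, CFAE+8 at 145 ± 0.623, CFAE+8+MSC at 170.2 ± 0.0968 and CFAE+6 at 184 ± 5.05 CPM per kb. The make-up of this sum changed with the medium. Bmp4 made up 71.5 ± 1.75% of the MEF sum, 26.6 ± 1.43% of the CFAE+8 sum, 50.8 ± 0.904% with MSC2530818 and 46.1 ± 0.303% with E-616452. The share of Bmp2 was 4.03 ± 0.579%, 54.5 ± 1.12%, 26.2 ± 1.46% and 30.2 ± 0.423% in this order of media. Bmp7 took 1.09 ± 0.0825% in MEF and 13.2 to 15.7% in the cocktails, and Gdf6 took 10.5 ± 0.219% in MEF and no more than 1.12% in any cocktail. Bmp8b, despite its wide range, reached 2.48 ± 0.0582% at most.

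**Figure D3:**
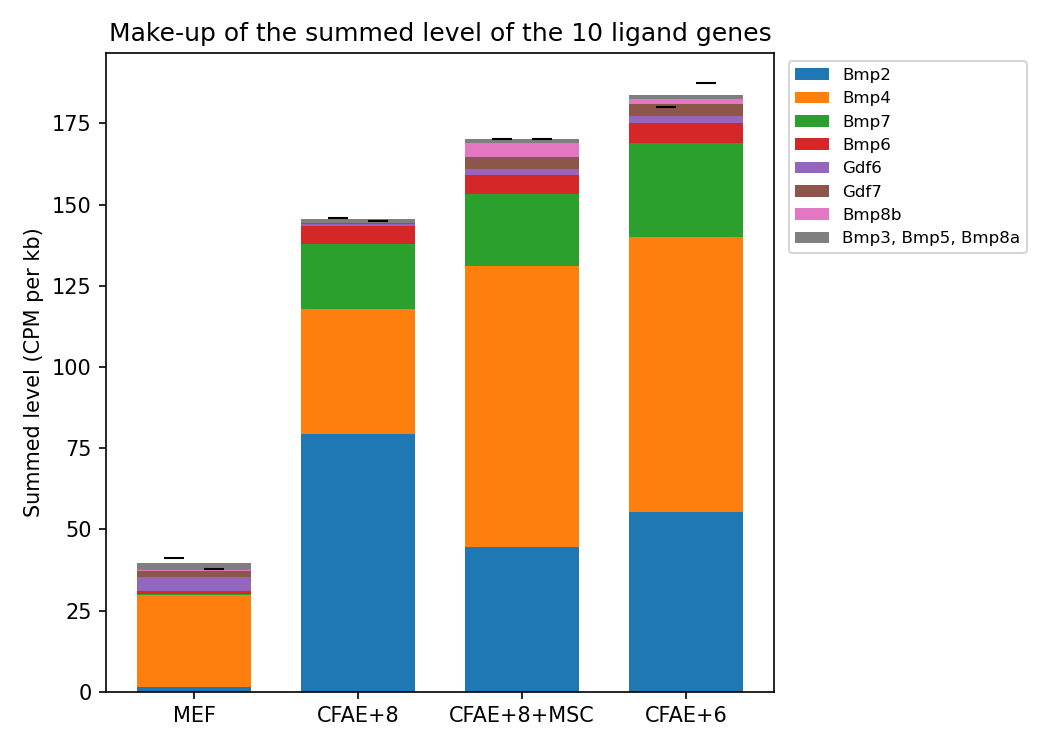
Summed level of the 10 ligand genes in CPM per kb of gene length (vertical axis, from 0) in the 4 media, as stacked means of 2 libraries, with a dash for the sum in each library. Bmp4 makes up most of the bar in MEF, Bmp2 most of it in CFAE+8, and Bmp4 again the largest part in CFAE+8+MSC and CFAE+6.

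The 250 bases upstream of the annotated start were available for 6 of the 10 genes from RefSeq (build GRCm38.p6). They are shown for Bmp4, Bmp8a, Bmp8b and Gdf7, the genes among these that were called higher when MSC2530818 was added to CFAE+8. Each is written 5′ to 3′ on the strand of its gene, ending at the base before the start site, with GC boxes (GGGCGG, or CCGCCC on the other strand) in capitals. The windows lie at chr14:46390670-46390919 on the minus strand for Bmp4, chr4:123343253-123343502 on the minus strand for Bmp8a, chr4:123104911-123105160 on the plus strand for Bmp8b and chr12:8301955-8302204 on the minus strand for Gdf7.

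Bmp4: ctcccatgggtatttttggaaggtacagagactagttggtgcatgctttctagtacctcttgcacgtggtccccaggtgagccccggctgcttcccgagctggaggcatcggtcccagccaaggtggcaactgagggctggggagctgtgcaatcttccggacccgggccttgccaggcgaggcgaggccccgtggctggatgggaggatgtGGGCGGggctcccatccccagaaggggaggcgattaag
Bmp8a: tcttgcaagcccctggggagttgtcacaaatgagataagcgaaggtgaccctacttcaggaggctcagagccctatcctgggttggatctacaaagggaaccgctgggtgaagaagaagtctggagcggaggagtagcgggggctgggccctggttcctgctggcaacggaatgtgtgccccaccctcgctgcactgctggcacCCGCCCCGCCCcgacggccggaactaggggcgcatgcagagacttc
Bmp8b: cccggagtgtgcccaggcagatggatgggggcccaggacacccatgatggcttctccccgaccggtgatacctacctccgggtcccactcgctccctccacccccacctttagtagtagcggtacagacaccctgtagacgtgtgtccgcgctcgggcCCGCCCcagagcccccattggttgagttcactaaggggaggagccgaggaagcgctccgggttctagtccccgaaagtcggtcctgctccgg
Gdf7: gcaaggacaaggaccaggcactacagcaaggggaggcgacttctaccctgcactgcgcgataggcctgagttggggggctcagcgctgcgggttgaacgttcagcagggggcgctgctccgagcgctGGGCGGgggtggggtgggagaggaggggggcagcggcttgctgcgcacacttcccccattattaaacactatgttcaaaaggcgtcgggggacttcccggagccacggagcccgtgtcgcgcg

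Of the 6 windows searched on both strands, 5 (Bmp4, Bmp6, Bmp8a, Bmp8b and Gdf7) held a GC box, as did 32.7% of 32851 RefSeq promoter windows of the same length. The 2 GC boxes of Bmp8a overlap by 1 base. The Bmp5 window, the one without it, had 42.8% G and C, against 62 to 68.8% in the other 5. Those 5 had more G and C than 76.7 to 89% of all promoter windows, and the 32.7% is not matched for G and C content. The cyclic AMP element TGACGTCA (in 1.55% of all windows), the AP-1 site TGANTCA (6.75%), the TCF/LEF cores CTTTGAT (3.21%) and CTTTGAA (4.46%), the SMAD-type GGCGCC (9.59%) and the TATA box TATAAA (12.4%) were found in none of the 6 windows. That says only that these letters are absent from these windows.

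Of 7 receptor genes tested, 5 fell and 1 rose from MEF to CFAE+8 (62% of all genes were called). Bmpr1b, a type I BMP receptor, stood at 15.3 ± 1.05 CPM in MEF and fell by 2.79 ± 0.27 on the log2 scale, to 2.21 ± 1.09 CPM (edgeR adjusted p = 2.23e-10), and Acvrl1, a type I receptor of endothelial cells, from 40.7 ± 2.57 to 7.78 ± 0.386 CPM (adjusted p = 6.73e-16). Bmpr1a fell less, from 139 ± 9.37 to 95.3 ± 2.54 CPM (adjusted p = 1.48e-08). Acvr2b, a type II receptor, rose from 1.29 ± 1.15 to 5.62 ± 0.387 CPM (adjusted p = 6.42e-06). With MSC2530818, Acvrl1 rose (adjusted p = 2.88e-07) and Acvr1 fell (adjusted p = 0.01), beside 29.3% of all genes called. With E-616452 Acvrl1 rose while Acvr1 and Bmpr2 fell, beside 26.6%. Among 5 co-receptors, Neo1 and Rgmb rose and Eng, Rgma and Tgfbr3 fell from MEF to CFAE+8.

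Among 8 SMAD and SMAD regulator genes, 4 rose and 4 fell from MEF to CFAE+8, beside 62% of all genes called in nearly even numbers each way. Smad1, Smad5 and Smad9, which carry the BMP signal, rose: Smad5 from 90.4 ± 4.05 to 139 ± 2.14 CPM (adjusted p = 3.42e-10) and Smad1 from 43.2 ± 8.51 to 79.4 ± 3.25 CPM (adjusted p = 3.25e-09). Smurf1 and Smurf2, ubiquitin ligases that limit this signal, fell (adjusted p = 9.72e-08 and 1.34e-06). Of the rest of the list, Smad6 rose (edgeR adjusted p = 0.0272) and Smad4 and Smad7 fell (adjusted p = 3.24e-05 and 9.4e-06). With MSC2530818, where 29.3% of all genes were called, 1 of the 8 passed. This was Smad7, an inhibitory SMAD, at 69.4 ± 0.526 and 79.3 ± 0.827 CPM (adjusted p = 0.036). With E-616452, where 26.6% of all genes were called, 3 of the 8 passed, and Smurf2, Smad7 and Smad1 fell.

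Of 19 BMP target genes tested, 12 rose and 5 fell from MEF to CFAE+8 (median log2 change 1.00), where 62% of all genes were called, 4762 higher and 4835 lower. With MSC2530818, 13 rose and 2 fell (median 0.66) against 29.3% of all genes, 2409 higher and 2129 lower. With E-616452, 9 rose and 3 fell (median 0.42) against 26.6%, 2215 higher and 1901 lower. The medians over all tested genes were 0.01, -0.004 and 0.001. This list and the other pathway lists were chosen with earlier results of these data known, so their counts and adjusted p-values are a description. Smad6, Smad7 and Smad9 are also in the SMAD list, and Bambi is also in the antagonist list. These genes are counted in both lists. Msx1, a homeobox gene of limb and face mesenchyme, was low in MEF, at 2.39 ± 0.656 CPM, and rose in CFAE+8 to 202 ± 0.944 CPM (adjusted p = 1.8e-28). It rose further with MSC2530818, to 333 ± 15.95 CPM (adjusted p = 1.08e-11), and with E-616452, to 276.5 ± 11.4 CPM (adjusted p = 1.77e-07). Id1, an inhibitor of basic helix-loop-helix factors, rose from 74.5 ± 2.14 to 414 ± 0.7625 CPM (adjusted p = 1.14e-25) and fell from there with MSC2530818 to 365 ± 8.85 CPM (adjusted p = 0.00396). With E-616452 it was lower still, at 347 ± 12.7 CPM. Id4 went the other way. Its MEF level of 45.3 ± 2.52 CPM fell to 13.1 ± 0.963 CPM in CFAE+8 (adjusted p = 7.22e-15), and it rose again to 34.8 ± 2.00 CPM with MSC2530818 (adjusted p = 2.32e-11) and 31.9 ± 0.418 CPM with E-616452 (adjusted p = 2.9e-10). 

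**Figure D4:**
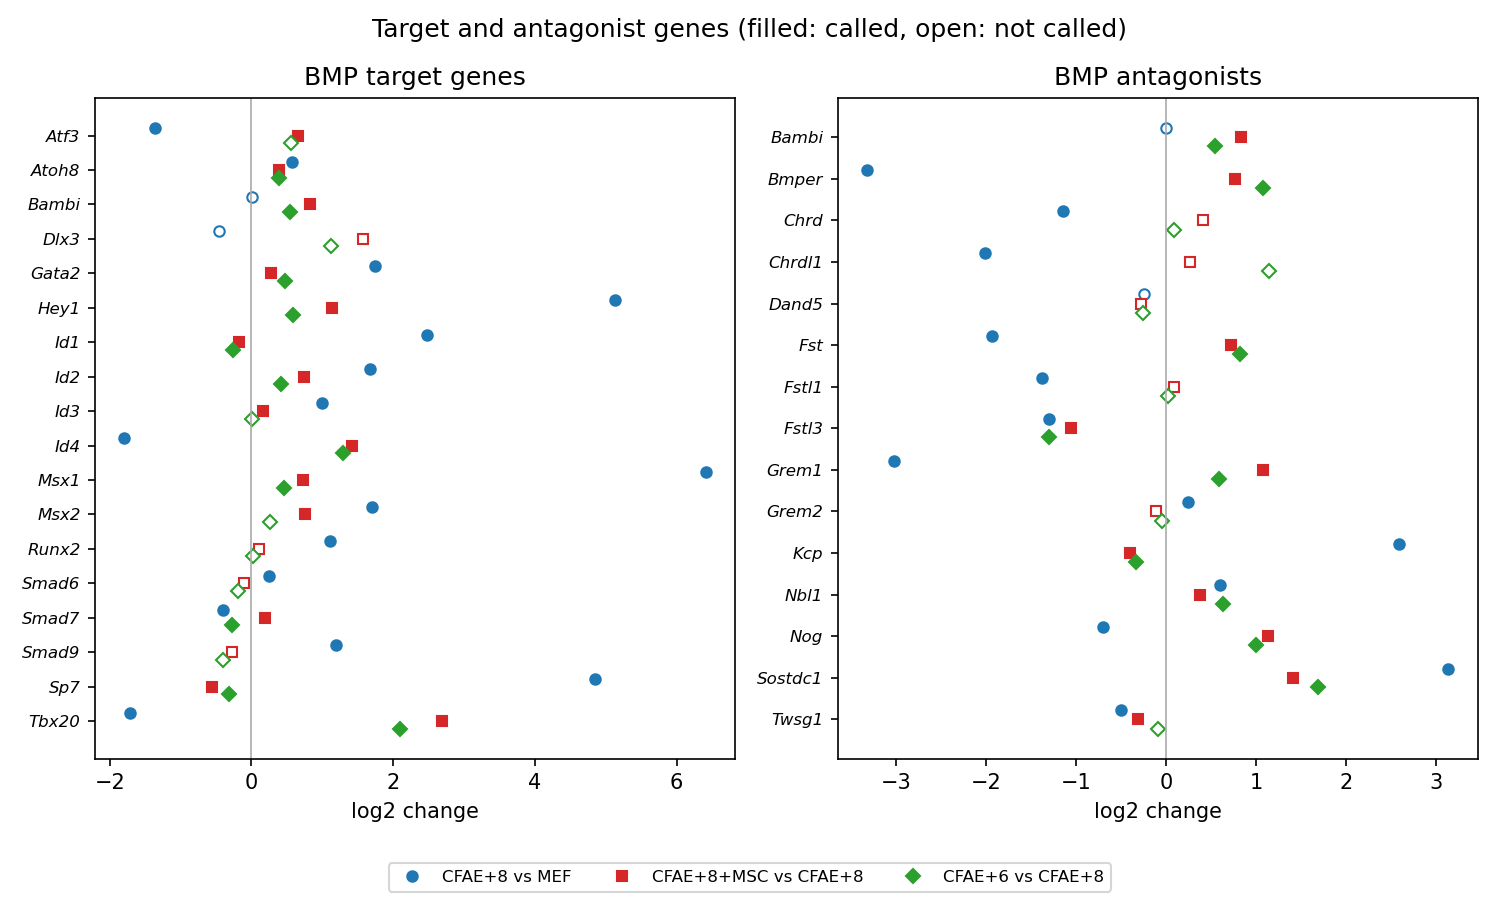
Log2 changes (horizontal axes) of the tested BMP target genes (left) and genes of the antagonist list (right) in 3 comparisons, filled where called over all tested genes and open where not. Dlx5 and Vwc2, with 2 and 1 counts in CFAE+8, are left out. Msx1 lies at 6.41 and Grem1 at -3.02 in CFAE+8 against MEF.

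Of 16 genes tested from the antagonist list, 10 fell and 4 rose from MEF to CFAE+8 (median log2 change -0.92), beside 62% of all genes called and an all-gene median of 0.01. Whether each listed gene acts as a BMP antagonist in these cells was not tested. Grem1, gremlin, was at 587 ± 7.87 CPM in MEF and fell by 3.02 ± 0.06 on the log2 scale, to 72.4 ± 5.63 CPM (adjusted p = 3.82e-27), and Fst, follistatin, from 186 ± 1.13 to 48.3 ± 2.55 CPM (adjusted p = 4.12e-21). Kcp, which encodes a chordin-like protein and is placed in this list without evidence here that it blocks BMPs, rose from 11.6 ± 0.424 to 69.9 ± 5.67 CPM (adjusted p = 2.02e-19). With MSC2530818, 7 rose and 3 fell (29.3% of all genes were called), Grem1 to 152 ± 4.60 CPM (adjusted p = 1.17e-14) and Nog, noggin, from 5.14 ± 1.24 to 11.3 ± 0.468 CPM (adjusted p = 4.28e-05). With E-616452, 8 rose and 2 fell (26.6% of all genes), Grem1 to 109 ± 2.63 CPM (adjusted p = 1.03e-08) and Sostdc1 from 4.51 ± 0.983 to 14.5 ± 1.53 CPM (adjusted p = 1.58e-07).

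Of 7 genes that process or store the ligands, 5 fell and 1 rose from MEF to CFAE+8 (62% of all genes called), 4 rose with MSC2530818 (29.3%), and 4 rose and 1 fell with E-616452 (26.6%). Pcsk6, a protease that cuts family precursors, fell from 19.9 ± 0.802 CPM to 6.38 ± 0.332 CPM in CFAE+8 (adjusted p = 3.33e-11). It rose from there to 31.4 ± 2.67 CPM with MSC2530818 (adjusted p = 2.82e-14) and to 43.0 ± 2.18 CPM with E-616452 (adjusted p = 2.88e-16). Furin, the main such protease, did not pass from MEF to CFAE+8 (237 ± 15.7 and 239.9 ± 4.20 CPM, adjusted p = 0.81) and fell with E-616452 to 204 ± 11.96 CPM (adjusted p = 0.00181). Of 23 other ligand genes of the wider family, 11 were tested. From MEF to CFAE+8, 6 rose and 3 fell, and with MSC2530818 and E-616452 4 rose in each and 4 and 3 fell, beside the same shares of all genes. Inhbb, an activin subunit, rose from 212 ± 4.44 to 1007 ± 13.04 CPM (adjusted p = 8.1e-27), and Tgfb2 rose from 74.5 ± 3.40 to 242 ± 6.52 CPM, to 535 ± 8.14 CPM with MSC2530818 (adjusted p = 1.63e-17). Gdf5, the closest relative of Gdf6 and Gdf7 outside the 10 genes, was at 3.12 ± 0.117 CPM in MEF and had 1 count in each cocktail group, and an antisense gene overlaps 40.3% of its exon length.

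For the 3 members with the widest range over the media, the closest profiles among 11262 protein-coding genes were found from the root mean square difference of the centred log2 group means over the 4 media. For Bmp7 these were Casz1, Prokr1 and Ube2ql1, at differences of 0.08, 0.12 and 0.18. For Bmp2 they were Lix1, Slitrk6 and Plk5, at 0.15, 0.16 and 0.19. For Bmp8b they were Vgf, Ceacam1 and Foxq1, at 0.27, 0.47 and 0.51, a looser match. Vgf, a neuropeptide precursor gene, was at 7.37 CPM in MEF, 5.58 CPM in CFAE+8, 134 CPM with MSC2530818 and 67.2 CPM with E-616452.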

How the data were processed

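Total RNA from 8 libraries of mouse embryonic fibroblasts, 2 for each of 4 media, was made into libraries with a NEBNext Ultra kit, per the labels' protocols. The authors deposited 1 table of raw, unscaled gene counts for the series. The submitters' processing notes name featureCounts, Subread, DESeq2 and the build mm10, without versions. The aligner, the strand setting and the handling of reads that match several places are unknown from these sources.

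Groups and replicate numbers came from the sample titles. The low-count filter was edgeR's filterByExpr (edgeR 4.0.16 under R 4.3.3), and 15470 genes with 99.9% of the counts passed it. Libraries were scaled by TMM, and levels are CPM on that scale, per kilobase of the table's gene length where genes are compared. The edgeR quasi-likelihood F test, 1 mean per group over all 8 libraries, was run for 6 comparisons, and genes under 0.05 after Benjamini-Hochberg adjustment across the whole tested table are termed called. Each SE was derived from the unshrunken coefficient and its F value, and 95% intervals from the t distribution.

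The members and gene lists were chosen with earlier results of these data known. All 10 members are reported. From each pathway list, genes were named from the up to 4 with the smallest adjusted p per comparison. Smad4, Smad6, Smad9, Nog and Gdf5 were named after their values were seen. For closest profiles a prior count of 2 was used, and genes with no group mean above 5 CPM were passed over. Exon overlaps, coding sequences and 75-base windows came from GENCODE M21, which gave the same start and end as the table for all 10 members. Alternatives were other scalings, DESeq2 1.42.0, other filters, a replicate block, fits of 2 groups, and leaving out each library.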

Additional observations from a re-analysis of the deposited data

How the results depend on the processing

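Of the 60 changes of the ligand genes (10 genes in 6 comparisons), 40 were called, and 34 of these kept their direction and their call under all 15 alternatives run. The 6 others, with the alternatives that ended them, were Bmp7 with MSC2530818, Bmp5 and Gdf7 in CFAE+6 and in CFAE+8+MSC against MEF, and Bmp8a in CFAE+6 against MEF; none changed sign. Over those alternatives the log2 change of Bmp7 lay between 0.16 and 0.21 and that of Bmp5 in CFAE+6 against MEF between -1.40 and -0.70. None of the 20 changes that were not called passed under an alternative. The count of ligand genes called in CFAE+6 against MEF was 9, and between 6 and 9 over the alternatives. In CFAE+8+MSC against MEF it was 8, and between 6 and 8. The number of called pathway genes with MSC2530818 was 41, and between 30 and 43, the lowest when 1 library was left out. Upper-quartile scaling moved the median of all genes by at most 0.04 on the log2 scale.

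Deviations of same-numbered libraries from their group means correlated between -0.02 and 0.05 across genes, the highest between CFAE+8+MSC and CFAE+6. With 2 libraries per group, counting noise weakens such correlations. They cannot show whether the replicate numbers in the titles pair the libraries. With the replicate number as a block, the ligand genes called were 7 in CFAE+8 against MEF, 7 with MSC2530818, 6 with E-616452, 8 in CFAE+6 against MEF, 8 in CFAE+8+MSC against MEF and 3 between CFAE+8+MSC and CFAE+6. The pathway genes called under the block, of 69 tested, were 62, 41, 43, 61, 62 and 24 in the same order. Over all 15470 genes tested, 9584, 4531, 4124, 9765, 9906 and 1679 were called under the block in that order. The low levels of Bmp3, Bmp5, Bmp8a, Bmp8b and Gdf7 rest on as few as 4 counts per library, which limits the precision of their ratios.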

Other observations

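An annotated long non-coding RNA gene next to Gdf7 had a profile over the media like that of Gdf7. Gm48898 (chromosome 12, 8291024 to 8293694, on the same strand, 4224 bases from Gdf7) had 42 and 40 counts in MEF, 11 and 7 in CFAE+8, 77 and 91 in CFAE+8+MSC, and 82 and 81 in CFAE+6. Its log2 change was -2.32 from MEF to CFAE+8, 3.28 with MSC2530818 and 3.21 with E-616452, beside -2.92, 3.78 and 3.85 for Gdf7. Other tested genes within 50 kb of Gdf7 were Ldah and Hs1bp3, whose changes with MSC2530818 were -0.03 and 0.02. Gm48898 was picked after its values were seen. Both genes are on the minus strand, and Gm48898 lies past the annotated 3′ end of Gdf7. Whether its reads come from a separate RNA or from Gdf7 RNA that runs past that end was not tested. The per-kilobase level of Gdf7 rests on its annotated length.

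Within the Bmp4 gene, on the other strand, Gm15222 had 29 and 38 counts in MEF, 80 and 75 in CFAE+8, 106 and 113 in CFAE+8+MSC, and 124 and 137 in CFAE+6. The kit does not mark strand, so reads from unspliced Bmp4 RNA and from Gm15222 cannot be told apart.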
